A study of Mus musculus with 6 samples.

Results

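The 39 genes described here act in DNA repair and in the checkpoint that senses DNA damage. They were taken by symbol from the deposited table of read counts, which has 17523 entries, and all 39 were found and passed the filter on low counts. They fall into 8 groups by pathway: homologous recombination (9 genes), the MRN complex (3), the RecQ helicases (2), end joining (6), single-strand break repair and ligation (5), mismatch repair (4), the Fanconi anaemia pathway (6) and the checkpoint kinases (4). Bone marrow cells of C57BL/6 mice were sorted by FACS before RNA extraction, and the series calls them hematopoietic stem cells (HSCs). One group was wild type (WT, 3 libraries) and the other carried NHD13 (3 libraries), a gene fusion joining NUP98, which encodes a nuclear pore protein, to the homeobox gene HOXD13, and used as a mouse model of myelodysplastic syndrome. No treatment is named for either group, and the sources used here do not give the age of the mice, the promoter behind the fusion, the markers of the sort or any pooling of animals. The labels do not say that libraries of a group came from separate animals, so the p-values measure the spread between these libraries. Part of that spread may be technical, and how large a part is not known. The NHD13 libraries differed in Xist RNA (values below), so they were not all copies of the same sample.

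Dividing blood progenitors meet broken, mispaired and crosslinked DNA, and separate pathways deal with each. Double-strand breaks are either copied back from the sister chromatid by homologous recombination, which needs BRCA1 and BRCA2, or rejoined directly by end joining, which starts when the Ku dimer (the products of Xrcc5 and Xrcc6) grips the ends. Mismatch repair removes copying errors, PARP enzymes mark nicks for XRCC1 and a ligase, the Fanconi anaemia proteins release crosslinks, and the kinases ATM, ATR, CHK1 and CHK2 halt the cell cycle meanwhile. Inherited loss of Fanconi anaemia genes causes bone marrow failure, which makes these pathways of interest in myelodysplasia.

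Transcription of many repair genes rises as cells enter S phase, and E2F factors bind short GC-rich motifs in such promoters. RefSeq promoter windows (GRCm38.p6, from 250 bases before to 50 bases after a start site) were found for 32 of the 39 genes, 37 windows in all. An E2F-type motif, TTTCCCGC or TTTGGCGC on either strand, was in 8 of these 37 windows (21.6%), against 1.56% of all 32851 windows of 300 bases and 2.96% of the 11447 windows of genes tested. The CCAAT box, searched as CCAAT on both strands, was in 45.9% of the members' windows, 37.4% of all windows and 38.2% of those of genes tested. TTTGAA, the CHR element, was in 1 of the members' windows (2.70%), 17.9% of all windows and 12.0% of those of genes tested. Matches of different motifs were counted separately even where they overlapped, and a match describes letters, not binding. The windows of 4 genes that were higher in NHD13 follow, from the sense strand of each gene, with E2F-type and CCAAT matches on either strand in capitals; they are given so that the Ku partners can be set side by side and compared with a checkpoint kinase and a recombination gene.
Xrcc5, chr1:72307171-72307470, plus strand: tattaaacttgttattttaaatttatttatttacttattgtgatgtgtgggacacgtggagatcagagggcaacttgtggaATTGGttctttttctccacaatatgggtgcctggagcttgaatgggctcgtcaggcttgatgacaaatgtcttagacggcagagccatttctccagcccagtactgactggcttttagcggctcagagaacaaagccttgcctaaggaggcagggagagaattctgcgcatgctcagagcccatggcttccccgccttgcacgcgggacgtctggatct
Xrcc6, chr15:82016119-82016418, plus strand: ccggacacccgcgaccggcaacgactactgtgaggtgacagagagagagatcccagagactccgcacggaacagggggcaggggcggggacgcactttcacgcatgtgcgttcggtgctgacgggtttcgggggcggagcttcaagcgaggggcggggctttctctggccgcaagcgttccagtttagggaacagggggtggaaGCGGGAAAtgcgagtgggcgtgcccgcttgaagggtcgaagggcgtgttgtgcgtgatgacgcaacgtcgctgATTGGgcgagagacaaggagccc
Chek2, chr5:110839733-110840032, plus strand: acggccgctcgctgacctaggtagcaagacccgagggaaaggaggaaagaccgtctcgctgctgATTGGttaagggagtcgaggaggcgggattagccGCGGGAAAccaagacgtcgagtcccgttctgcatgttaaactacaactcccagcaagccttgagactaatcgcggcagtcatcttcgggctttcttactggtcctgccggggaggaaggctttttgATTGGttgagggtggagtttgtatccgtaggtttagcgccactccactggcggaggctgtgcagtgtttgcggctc
Brca2, chr5:150522371-150522670, plus strand: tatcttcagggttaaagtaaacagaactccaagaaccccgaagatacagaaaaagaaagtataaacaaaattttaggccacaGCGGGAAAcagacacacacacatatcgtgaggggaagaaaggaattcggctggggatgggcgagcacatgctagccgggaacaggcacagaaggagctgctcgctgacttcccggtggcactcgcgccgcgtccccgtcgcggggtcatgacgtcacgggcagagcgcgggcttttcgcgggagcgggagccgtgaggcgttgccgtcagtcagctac

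In Xrcc6, Chek2 and Brca2 the E2F-type letters stand on the opposite strand (GCGGGAAA as printed), at 46, 152 and 168 bases before the start. The Xrcc5 window held no E2F-type match and 1 CCAAT match, 169 bases before the start, and the window of Blm, also called higher, held no E2F-type match. The other E2F-type matches were in 5 genes that were not called: Bard1, Msh3 and Msh6, with positive log2 changes, and Rad51c and Fancg, with negative ones (-0.31 and -0.11). Of the 9 genes called higher below, 5 had a window, so the other 4 (Exo1, Fancd2, Nbn and Wrn) could not be read this way.

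Total counts ran from 12541538 to 14388772 per library, and the members had 99 to 5230 counts in a library, so counting error was a larger part of the spread for the lowest of them, Lig4, Xrcc4 and Rad51c. Values in CPM are counts scaled to a common library size with TMM factors. As a check of the labels, the row for the fusion held 0 counts in every WT library (up to 0.21 to 0.239 CPM at a floor of 3 counts) and 167 to 185 in the NHD13 libraries. NHD13 replicate 1 stood apart: on the second principal component, with 12.3% of the variance, it was at 28.2 and the other NHD13 libraries at -9.44 and -14.1. The libraries also differed in sex-linked RNA, with Xist at 463 to 1078 CPM in the WT libraries and 2.55, 1.95 and 683 CPM in NHD13 replicates 1 to 3, and Y-linked genes at 0.0109% to 0.0194% of counts in WT and 0.0177% to 0.028% in NHD13. Of the 12 stem cell markers checked, 9 passed the filter on low counts, and their changes are summarised with the other cell markers below. Kit was at 254 CPM and 227 CPM (means of WT and NHD13). Procr and Fgd5, which mark the most primitive cells, had 0 to 7 counts in a library and were near the floor in both groups. RNA of maturing neutrophils was abundant in both groups. A gene was called at an adjusted p under 0.05 in edgeR's quasi-likelihood test over 12013 genes.

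Repair genes were mostly a little higher in NHD13. Of the 39 members, 9 rose and 0 fell: Xrcc5, Wrn, Nbn, Exo1, Chek2, Xrcc6, Fancd2, Blm and Brca2. Over all genes tested 15.0% were higher and 15.3% lower (30.3% in either direction), and 23.1% of the members were higher. At an unadjusted p under 0.05, 19 members were higher and 2 lower (53.8% in either direction). Of all genes tested, 43.1% had such a p (2625 higher and 2552 lower). DESeq2 and limma-voom also called 0 members lower. The median log2 change of the members was 0.17, against 0.00 over all genes tested, and 33 of 39 changes were positive. The shifts were small, and of the 39 only Xrcc5 changed by 1.5-fold or more. In 19 members all NHD13 libraries lay above all WT libraries (48.7%, against 23.5% of all genes tested), and in 3 members, Rad51c, Trp53bp1 and Brip1, all lay below (7.69%, against 22.6%). In bulk RNA a change in the mixture of cells and a change of RNA per cell cannot be told apart. The plot of log2 changes by pathway shows this spread.

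**Figure D1:**
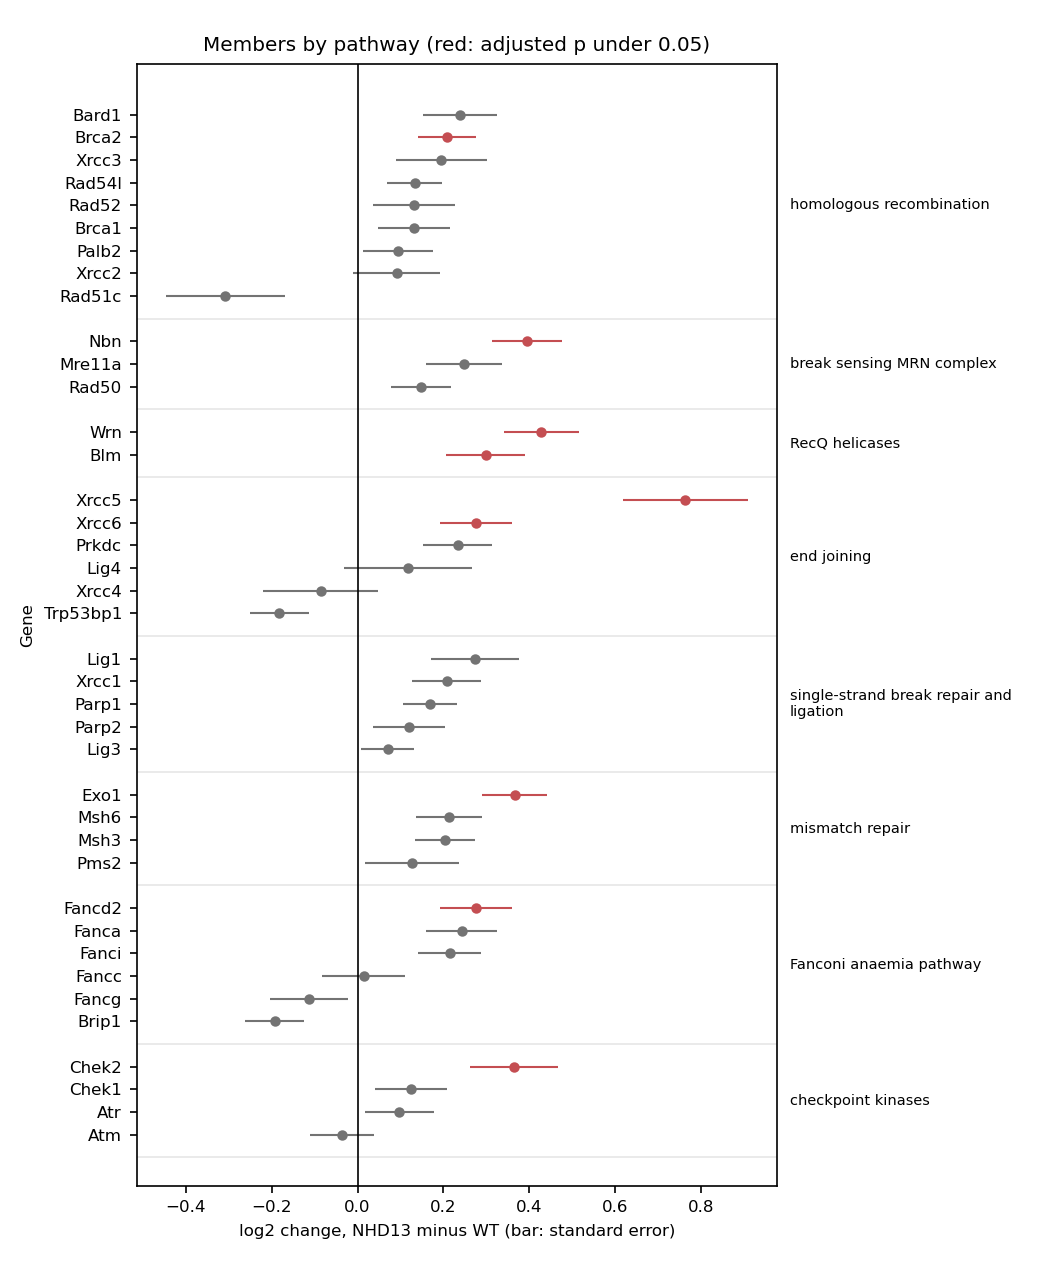
Log2 change (NHD13 minus WT) of each of the 39 genes on the x axis, one gene per row, grouped by pathway; points are edgeR estimates, bars are standard errors, and red marks an adjusted p under 0.05. Xrcc5 at 0.76 lies farthest right and Rad51c at -0.31 farthest left, and 33 of 39 points lie right of 0.

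The count of 9 rested on single libraries. It was 21 without NHD13 replicate 1, where 24.5% of all genes were called higher, and it was 4 without replicate 2 or 3 of either group, and 6 without WT replicate 1. The share of all genes called higher fell in these analyses too, to between 6.23% and 6.86% without replicate 2 or 3 of either group and to 9.88% without WT replicate 1, beside 10.3% and 15.4% of the members. The 4 genes that stayed called with any 1 library left out were Xrcc5, Wrn, Nbn and Exo1. With the Y-linked share of counts as a covariate 0 of the 39 were called (0.924% of all genes were called higher), 6 had an unadjusted p under 0.05, and the median log2 change of the members was 0.15. The part of sex-linked differences in these changes was not otherwise tested. In all 9 called genes NHD13 replicate 1 was the lowest of the NHD13 libraries, as it was in 83.9% of the 1799 genes called higher overall; its median distance from the WT mean was 41.6% of that of NHD13 replicates 2 and 3, against 51.8% for all genes called higher.

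**Figure D2:**
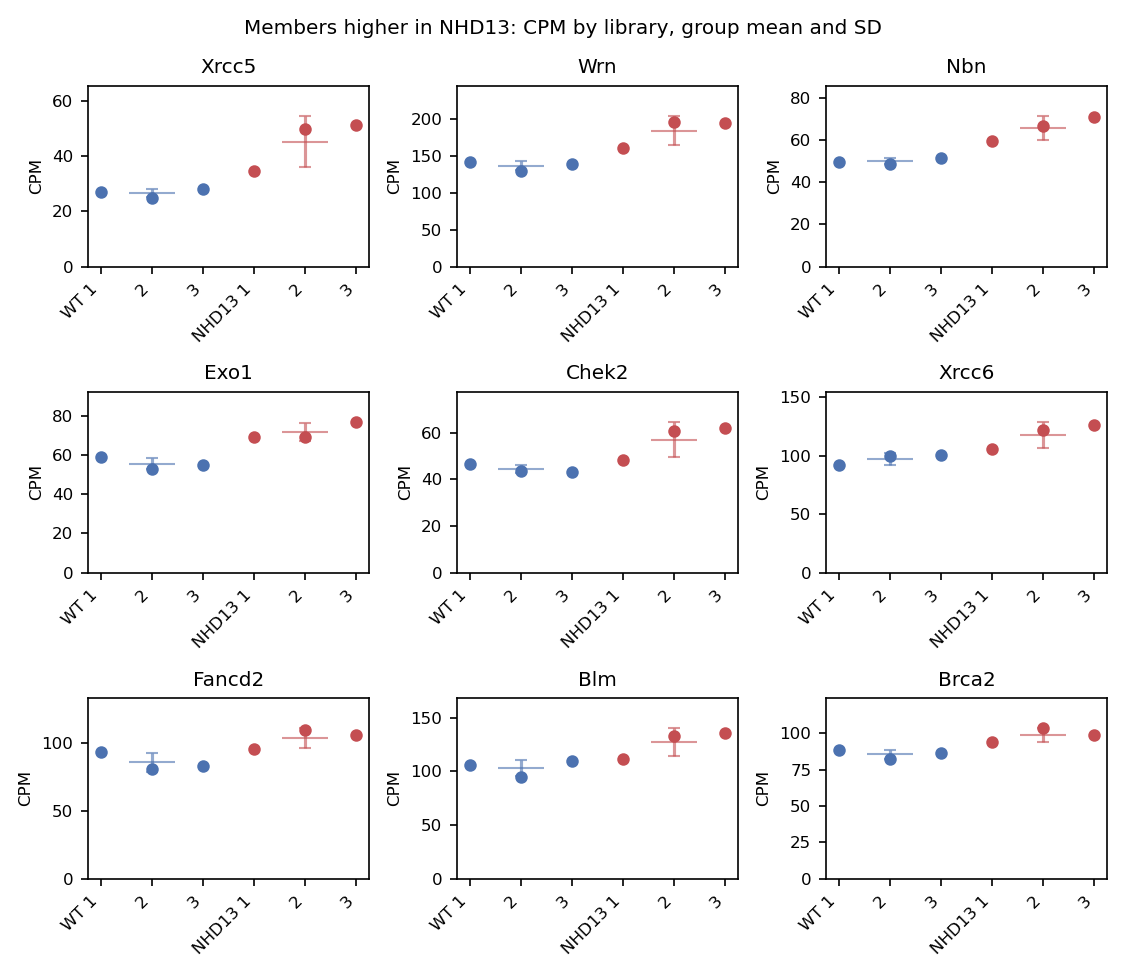
CPM (y axis, from 0) in each library (x axis) for the 9 genes called higher in NHD13; points are libraries, horizontal marks and bars are group means and SD (n = 3). In each panel the 3 NHD13 points lie above the 3 WT points, and NHD13 replicate 1 is the lowest of the NHD13 points.

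End joining held the largest change, and 2 of its 6 genes rose (33.3%, against 15.0% of all genes tested) and 0 fell in edgeR. Xrcc5 encodes Ku80, which with Ku70 forms the ring that slides onto a broken end. It was at 26.96, 24.9 and 28.02 CPM in WT replicates 1 to 3 and at 34.6, 49.9 and 51.1 CPM in the NHD13 libraries 1 to 3. The groups did not overlap, and NHD13 replicates 2 and 3 were well above replicate 1. The rise was 1.70-fold (log2 0.76, SE 0.15, adjusted p = 0.00671), from 26.6 CPM ± 1.56 to 45.2 CPM ± 9.22 (SD, n = 3 each). Its gene lies on mm10 chromosome 1, 72307421 to 72394952, and its exons overlap no other annotated gene.

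Xrcc6, which encodes Ku70 (chromosome 15, 81987835 to 82040085), also rose. It was at 91.5, 99.2 and 101 CPM in the WT libraries and 105, 122 and 126 CPM in the NHD13 libraries, with NHD13 replicate 1 just above the highest WT library. The change was 1.21-fold (log2 0.28, SE 0.08, adjusted p = 0.0363), and the call was lost without any 1 of WT replicates 1 to 3 and NHD13 replicates 2 and 3 (adjusted p from 0.0851 to 0.152). Its exons overlap those of Desi1 on the other strand, so part of its reads cannot be assigned with certainty.

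The catalytic subunit that Ku recruits, DNA-PKcs, is encoded by Prkdc. Its level was 94.5, 78.5 and 87.04 CPM in the WT libraries and 105, 97.99 and 102 CPM in the NHD13 libraries. The NHD13 libraries were all higher, but the gap was small beside the WT spread, and the change did not pass (log2 0.23, SE 0.08, adjusted p = 0.0576). Its adjusted p was 0.0457 when WT replicate 1 was left out and 0.0379 when NHD13 replicate 1 was left out. The ligation step showed no call in either direction. Xrcc4, the scaffold of DNA ligase IV, was at 9.28 CPM ± 0.745 in the WT group and 8.74 CPM ± 0.757 in NHD13, with a 95% interval of the log2 change from -0.46 to 0.29. Lig4, the ligase itself, was at 8.49 CPM ± 0.975 and 9.21 CPM ± 1.04 (interval -0.30 to 0.53), and was the member with the lowest level per length.

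Trp53bp1 had a negative change that did not pass. It encodes 53BP1, which shields broken ends from resection and so favours end joining over recombination. Its level was 72.6, 72.5 and 76.5 CPM in the WT libraries and 68.6, 62.3 and 64.4 CPM in the NHD13 libraries, each NHD13 library below each WT library. The log2 change was -0.18 (SE 0.07, adjusted p = 0.0729), short of the threshold, and it was past it without NHD13 replicate 1 (adjusted p = 0.0168) and under upper-quartile scaling. Its exons overlap Tubgcp4 on the other strand.

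Because the Ku proteins work as a dimer, the ratio of the 2 genes was read within each library, where scaling between libraries cancels. Per kb of exon, Xrcc5 RNA was 0.383, 0.326 and 0.361 times that of Xrcc6 in WT and 0.426, 0.532 and 0.528 times in NHD13. All NHD13 ratios were above all WT ratios (exact two-sided permutation p = 0.1, the smallest that 3 against 3 allows; 0.4 adjusted over the 12 partner pairs compared). The log2 difference was 0.47 and stayed between 0.41 and 0.57 with any 1 library left out. The pairs were chosen after the values were seen. The ratio restates the changes of the 2 genes given above, so it is not separate support for them.

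**Figure D3:**
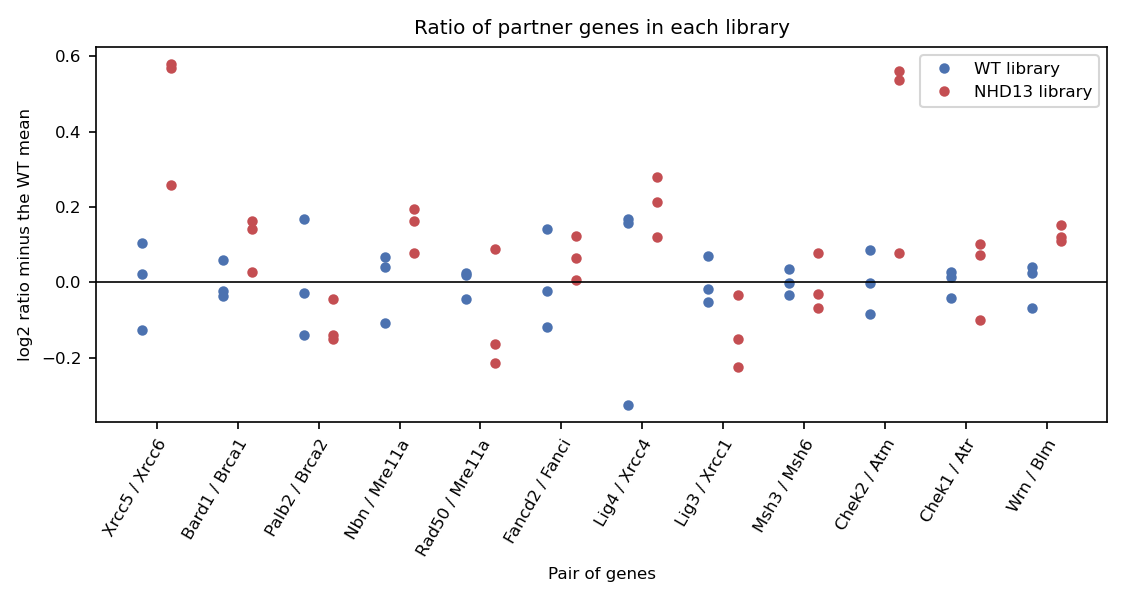
Log2 ratio of 2 partner genes in each library minus the mean over the WT libraries (y axis), for 12 pairs (x axis); blue points are WT and red points NHD13 libraries. The groups separate for Xrcc5 / Xrcc6, Nbn / Mre11a and Wrn / Blm, and overlap in the other 9 pairs.

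Of the RecQ helicases, which unwind recombination intermediates and stalled forks, both rose (2 of 2, against 15.0% of all genes tested). Wrn, the gene mutated in Werner syndrome (chromosome 8, 33234384 to 33385527), was at 143, 130.1 and 139 CPM in the WT libraries and 162, 197 and 195 CPM in the NHD13 libraries, and no NHD13 library reached down to the WT range. The change was 1.34-fold (log2 0.43, SE 0.09, adjusted p = 0.00861). Blm, the gene of Bloom syndrome (chromosome 7, 80454733 to 80535119), was at 105, 94.9 and 109.6 CPM and 112, 133 and 136 CPM, with NHD13 replicate 1 close to WT replicate 3. Its change was 1.23-fold (log2 0.30, SE 0.09, adjusted p = 0.0404), and the call was lost without any 1 of WT replicates 1 to 3 and NHD13 replicates 2 and 3 (adjusted p from 0.0761 to 0.153). The ratio of Wrn to Blm per kb was 0.948, 0.958 and 0.889 in WT and 1.01, 1.03 and 1.01 in NHD13, without overlap (exact permutation p = 0.1; 0.4 adjusted over the 12 pairs).

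In the MRN complex, which binds break ends and activates ATM, 1 of 3 genes rose (33.3%, against 15.0% of all genes tested). Nbn, the regulatory subunit NBS1 (chromosome 4, 15957925 to 15992589), was at 49.3, 48.8 and 51.5 CPM in the WT libraries and 59.4, 66.4 and 70.8 CPM in the NHD13 libraries. The WT libraries lay within a narrow band and every NHD13 library lay above it. The change was 1.31-fold (log2 0.39, SE 0.08, adjusted p = 0.00874). Mre11a, the nuclease, had means of 62.6 CPM ± 4.18 and 74.3 CPM ± 6.80 (log2 0.25, adjusted p = 0.0636), with NHD13 replicate 1 inside the WT range. Rad50, the ATPase that tethers the ends, had the highest CPM of the 3 but per kb of exon was close to Nbn (23.4 and 22.8 RPKM over all libraries). It was at 123, 108 and 111 CPM in the WT libraries and 129, 124 and 126 CPM in the NHD13 libraries. The groups were adjacent without overlapping, and the change did not pass (log2 0.15, SE 0.07, adjusted p = 0.14).

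Of the homologous recombination genes 1 of 9 rose (11.1%, against 15.0% of all genes tested) and 0 fell in edgeR. At an unadjusted p under 0.05, 2 were higher and 0 lower (22.2%, against 43.1% of all genes tested). The median log2 change was 0.13. Brca2, a central mediator of recombination (chromosome 5, 150522630 to 150570329; exons overlap Gm42529 on the other strand), was at 88.3, 82.3 and 86.2 CPM in the WT libraries and 94.1, 104 and 98.7 CPM in the NHD13 libraries. The groups did not overlap, but the 1.15-fold change (log2 0.21, SE 0.07, adjusted p = 0.0468) lay at the edge of the threshold. It was not past it in 11 of the 14 alternatives, DESeq2 among them (adjusted p = 0.0563), and was past it only without NHD13 replicate 1, with DESeq2's size factors and in limma-voom.

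The ubiquitin ligase pair BRCA1 and BARD1 marks breaks for recombination. Brca1, the uncalled recombination gene with the highest CPM (per kb of exon Rad54l was higher, at 26.2 RPKM against 17.97 RPKM over all libraries), was at 110.0, 112 and 116 CPM in the WT libraries and 109, 128 and 133 CPM in the NHD13 libraries. NHD13 replicate 1 was below all WT libraries and replicates 2 and 3 above them (log2 0.13, SE 0.08, adjusted p = 0.259). Bard1 had means of 53.7 CPM ± 3.46 and 63.4 CPM ± 5.47 (log2 0.24, adjusted p = 0.0673). Both were called higher without NHD13 replicate 1.

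Rad51c, which acts in early and late steps of recombination, had the lowest log2 change of the 39, -0.31 (SE 0.14, adjusted p = 0.124). Its level was 9.25, 12.1 and 10.04 CPM in the WT libraries and 8.40, 8.62 and 8.29 CPM in the NHD13 libraries. The NHD13 libraries were close together and all below WT, while WT replicate 2 stood above the other WT libraries. The change was not called in any of the 14 alternatives. Xrcc2 and Xrcc3, which act in the same pathway, were higher in the mean, with log2 changes of 0.09 for Xrcc2 and 0.19 for Xrcc3 (adjusted p = 0.52 and 0.193). Palb2, which bridges BRCA1 and BRCA2, Rad52, an annealing factor, and Rad54l, a motor that drives strand exchange, had log2 changes of 0.09, 0.13 and 0.13, none past the threshold.

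Mismatch repair genes were all higher in the mean, with 1 of 4 past the threshold (25.0%, against 15.0% of all genes tested). Exo1, the exonuclease that removes the mispaired strand and also resects breaks (chromosome 1, 175880581 to 175913489), was at 58.8, 53.01 and 55.2 CPM in the WT libraries and 69.1, 69.2 and 76.9 CPM in the NHD13 libraries. All NHD13 libraries lay above WT, and NHD13 replicates 1 and 2 were nearly equal. The change was 1.29-fold (log2 0.37, SE 0.08, adjusted p = 0.00904). Msh6, which reads single mismatches, was the most abundant of the group at 149, 141 and 152 CPM in the WT libraries and 154, 179 and 179 CPM in the NHD13 libraries. The groups did not overlap, by a small margin at NHD13 replicate 1 (log2 0.21, SE 0.08, adjusted p = 0.0634). Msh3, which reads larger loops, had means of 42.6 CPM ± 1.12 and 49.1 CPM ± 1.78 (adjusted p = 0.0551). Pms2, the endonuclease subunit, was at 38.7 CPM ± 1.10 and 42.2 CPM ± 6.26 (adjusted p = 0.408).

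In the Fanconi anaemia pathway 1 of 6 genes rose (16.7%, against 15.0% of all genes tested) and 0 fell in edgeR. At an unadjusted p under 0.05, 3 were higher and 1 lower (66.7%, against 43.1% of all genes tested). Fancd2, which is ubiquitinated as part of the clamp that the pathway turns on (chromosome 6, 113531682 to 113597017), was at 93.3, 80.4 and 82.6 CPM in the WT libraries and 95.3, 109 and 106 CPM in the NHD13 libraries, with NHD13 replicate 1 just above WT replicate 1. The change was 1.21-fold (log2 0.28, SE 0.08, adjusted p = 0.037), and the call was lost without WT replicate 2 or 3 or NHD13 replicate 2 or 3 (adjusted p from 0.122 to 0.149). Its clamp partner Fanci had means of 59.7 CPM ± 1.28 and 69.2 CPM ± 5.03 (log2 0.21, adjusted p = 0.0584), and the ratio of the pair overlapped between the groups. Exons of Fancd2 overlap Fancd2os, and those of Fanci overlap Polg, on the other strand.

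Among the core complex genes, which build the ligase that modifies the clamp, Fanca had the highest CPM (per kb of exon Fancg was higher, at 16.3 RPKM against 12.9 RPKM over all libraries), at 82.1, 76.4 and 69.5 CPM in the WT libraries and 83.6, 94.7 and 91.2 CPM in the NHD13 libraries. WT replicate 1 nearly reached NHD13 replicate 1, and the change did not pass (log2 0.24, SE 0.08, adjusted p = 0.0567). Fancc was level, at 19.00 CPM ± 1.26 and 19.2 CPM ± 0.576, with a 95% interval of the log2 change from -0.25 to 0.28. Fancg had a log2 change of -0.11 (adjusted p = 0.364; 0.043 without NHD13 replicate 1, where it was called lower). Brip1, a helicase that binds BRCA1, was at 57.3, 59.8 and 62.6 CPM in the WT libraries and 52.2, 54.04 and 50.9 CPM in the NHD13 libraries. Every NHD13 library was below every WT library (log2 -0.19, SE 0.07, adjusted p = 0.0624), and the change passed only under upper-quartile scaling (adjusted p = 0.0335), where the median of all genes was -0.04.

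Of the checkpoint kinases 1 of 4 rose (25.0%, against 15.0% of all genes tested). Chek2, which ATM activates after double-strand breaks (chromosome 5, 110839979 to 110874145), was at 46.5, 43.8 and 43.1 CPM in the WT libraries and 48.5, 60.9 and 62.1 CPM in the NHD13 libraries. NHD13 replicate 1 was close to the WT range and the other NHD13 libraries were clearly above it. The change was 1.29-fold (log2 0.36, SE 0.10, adjusted p = 0.028), and the call was lost without any 1 of WT replicates 1 to 3 and NHD13 replicates 2 and 3 (adjusted p from 0.0549 to 0.109). The upstream kinases had no call. Atm was at 106, 94.2 and 104 CPM in the WT libraries and 105, 94.2 and 97.7 CPM in the NHD13 libraries, with overlapping groups (log2 -0.04, SE 0.07, adjusted p = 0.737, 95% interval -0.24 to 0.17). Atr, which responds to stalled forks, and its target kinase Chek1 had log2 changes of 0.10 and 0.12 (adjusted p = 0.388 and 0.287).

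None of the 5 genes of single-strand break repair and ligation was called in edgeR, where 15.0% of all genes tested were higher and 15.3% lower. Of the 5, 3 were higher and 0 lower at an unadjusted p under 0.05, which 43.1% of all genes tested had. DESeq2 and limma-voom called 0 of the 5 as well. Parp1, the main sensor of nicks, was at 298, 282 and 292 CPM in the WT libraries and 308, 329 and 344 CPM in the NHD13 libraries, without overlap (log2 0.17, SE 0.06, adjusted p = 0.0724). Lig1, which seals Okazaki fragments, was at 254, 289 and 288 CPM and 283, 364 and 357 CPM. NHD13 replicate 1 was inside the WT range and replicates 2 and 3 were above it (log2 0.27, SE 0.10, adjusted p = 0.0742). Both were called higher without NHD13 replicate 1, as was the scaffold gene Xrcc1 (log2 0.21, adjusted p = 0.081 over all libraries). Parp2, a second nick sensor, and Lig3, the ligase bound to XRCC1, had log2 changes of 0.12 and 0.07 (adjusted p = 0.303 and 0.412).

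Levels per length of exon spanned a wide range. They are given as CPM per kb of exon (RPKM), with exon lengths from GENCODE vM21, and ran from 1.70 RPKM for Lig4 to 86.9 RPKM for Lig1 over all libraries, with a median of 12.8. Lig1 (78.7 RPKM ± 5.70 in WT and 95.1 RPKM ± 12.7 in NHD13) and Parp1 (75.1 RPKM ± 2.13 and 84.4 RPKM ± 4.61) were well above all others, and these 2 neighbours did not differ beyond their spread. Lig4, Rad51c and Fancc were lowest. Xrcc5 moved up in this order, from 10.4 RPKM ± 0.611 in WT to 17.7 RPKM ± 3.61 in NHD13, and still remained below Xrcc6 (29.3 RPKM ± 1.48 and 35.5 RPKM ± 3.27).

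**Figure D4:**
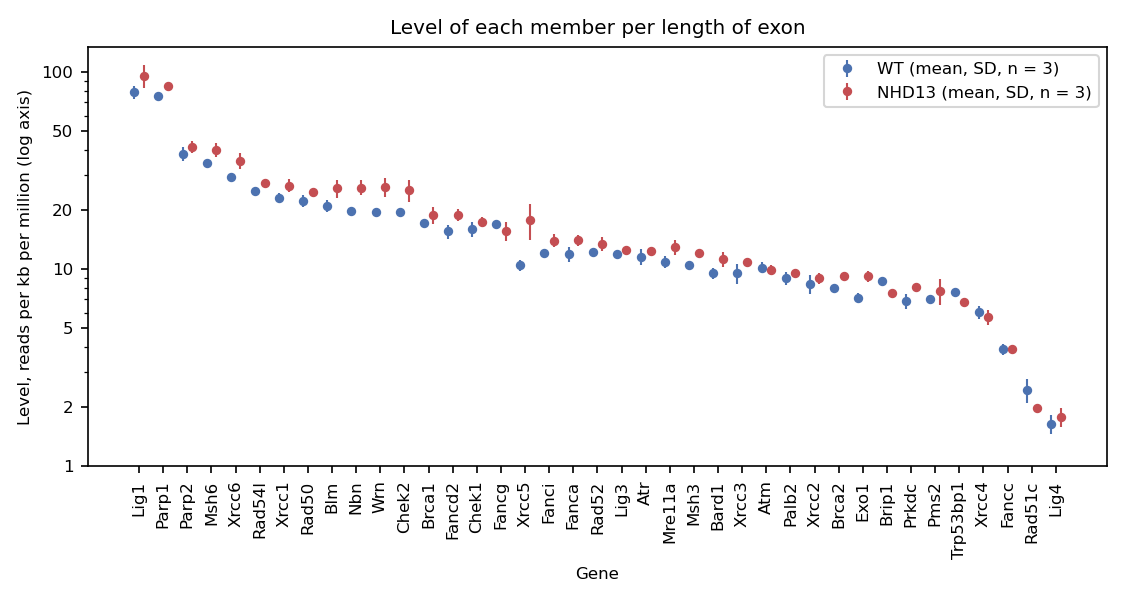
Mean level of each gene in RPKM (y axis, log scale) with SD over 3 libraries, WT in blue and NHD13 in red, genes ordered by their mean over all libraries (x axis). Lig1 and Parp1 stand at the top, Lig4 at the bottom, and Xrcc5 shows the widest gap between the groups.

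Other genes of the same pathways, 131 in 8 lists, were tested in the same fit. Of 125 that passed the filter, 26 were higher (20.8%, against 15.0% of all genes) and 4 lower (3.20%, against 15.3%), with a median log2 change of 0.12. Their count of higher genes was 47 without NHD13 replicate 1 and 5 to 15 without any other single library, where 24.5% and 6.23% to 9.88% of all genes were called higher. With the Y-linked covariate 0 were higher and 1 lower, where 111 and 175 of all 12013 genes were.

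Among other recombination genes 7 of 28 rose (25.0%, against 15.0% of all genes tested) and 0 fell in edgeR. At an unadjusted p under 0.05, 1 was lower. Recql4, another RecQ helicase, was at 43.3, 40.7 and 48.6 CPM in the WT libraries and 56.9, 88.5 and 82.6 CPM in the NHD13 libraries, a 1.72-fold rise (adjusted p = 0.00783) in which NHD13 replicate 1 again lay between WT and the other NHD13 libraries. Slx4, a scaffold for nucleases, rose 1.29-fold and Eme1, a subunit of one of them, 1.28-fold (adjusted p = 0.00843 and 0.0149). The call of Eme1 was lost without WT replicate 3 or NHD13 replicate 2 or 3.

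Of the other end joining genes 2 of 11 were higher and 2 lower (18.2% each), near the shares of all genes tested (15.0% and 15.3%). Polq, the polymerase of microhomology-mediated joining, was at 90.6, 78.4 and 82.9 CPM in the WT libraries and 107, 115 and 115 CPM in the NHD13 libraries, a 1.34-fold rise with all NHD13 libraries close together (adjusted p = 0.00522). Rif1, which acts with 53BP1 at ends, rose 1.19-fold (adjusted p = 0.0433), and the call was lost without WT replicate 2 or 3 or NHD13 replicate 2 or 3. Dntt, which adds bases at antigen receptor joints in lymphoid precursors, was at 21.5, 46.6 and 46.2 CPM in the WT libraries and 1.05, 1.18 and 2.07 CPM in the NHD13 libraries, the largest difference among all repair genes listed (26.3-fold lower, adjusted p = 0.000159) and the only gene named here that was called under all 14 alternatives. B-lymphoid markers (10 genes) summed to 24.9 to 37.9 CPM in WT and 15.5 to 18.4 CPM in NHD13, and their part in the fall of Dntt was not tested. Poll, a gap-filling polymerase, fell 1.25-fold (adjusted p = 0.0325), and 5 of the 6 analyses without 1 library lost that call, all but the one without NHD13 replicate 1.

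Of the other checkpoint genes 6 of 21 rose (28.6%, against 15.0% of all genes tested) and 0 fell in edgeR. At an unadjusted p under 0.05, 0 were lower. Trp53, which encodes p53, was at 146, 141 and 129 CPM in the WT libraries and 158, 168 and 181 CPM in the NHD13 libraries (1.22-fold, adjusted p = 0.0237), Rnf8, a ligase that marks chromatin at breaks, rose 1.23-fold, and Cdc25a, the phosphatase that the checkpoint targets, rose 1.16-fold. The calls of Rnf8 and Cdc25a were lost without any 1 library other than NHD13 replicate 1, and that of Trp53 without WT replicate 2 or 3 or NHD13 replicate 2 or 3. Of 16 tested p53 target genes, 3 rose and 3 fell (18.8% each, against 15.0% and 15.3% of all genes tested). The median log2 change was -0.06. Sesn2, a stress-induced metabolic regulator, and Pmaip1, which encodes the death protein NOXA, rose 1.69-fold and 1.79-fold, and the death receptor gene Fas and Trp53inp1 fell 1.81-fold and 1.61-fold. Each of these 4 calls was lost without at least 3 of the 6 libraries in turn.

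Nucleotide excision repair removes bulky lesions and shares subunits with the transcription factor TFIIH. Of its 19 genes 7 were higher (36.8%, against 15.0% of all genes tested) and 0 lower in edgeR. At an unadjusted p under 0.05, 1 was lower. Gtf2h3, a TFIIH subunit, rose 1.47-fold, and Rad23b, which stabilises the damage sensor XPC, rose 1.19-fold (adjusted p = 0.0101 and 0.0128). The call of Gtf2h3 was lost without WT replicate 2, and that of Rad23b without WT replicate 2 or NHD13 replicate 2 or 3. In translesion synthesis and direct reversal 0 of 13 rose and 2 fell (15.4%, against 15.3% of all genes tested). At an unadjusted p under 0.05, 2 were higher. Ube2b, the ubiquitin-conjugating partner of RAD18, was at 77.1, 77.9 and 79.9 CPM in the WT libraries and 66.00, 62.2 and 61.03 CPM in the NHD13 libraries (1.24-fold lower, adjusted p = 0.00912), and Mgmt, which strips alkyl groups from guanine, fell 1.62-fold to 2.44 CPM ± 0.102 (adjusted p = 0.0259; lost without WT replicate 2 or 3 or NHD13 replicate 2 or 3).

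In the remaining lists, Fen1, the flap nuclease of base excision repair and replication, was the 1 gene called of 17, 1.26-fold higher. That share was 5.88%, against 15.0% of all genes tested that were higher. Mlh3 was the 1 called of 5 in mismatch repair, 1.25-fold higher, where 15.0% of all genes tested were higher. Fance and Fan1 were the 2 called of 11 in the Fanconi anaemia pathway (18.2%, against 15.0% of all genes tested), 1.40-fold and 1.39-fold higher. Each of these 4 calls was lost without NHD13 replicate 2 or 3, those of Fen1, Mlh3 and Fan1 also without WT replicate 2 or 3, and those of Mlh3 and Fan1 also without WT replicate 1.

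Genes of the cell cycle were also called. Of 24 S-phase genes 8 rose (33.3%, against 15.0% of all genes tested) and 0 fell in edgeR. At an unadjusted p under 0.05, 0 were lower, and the median log2 change was 0.20. Ccne1 (cyclin E1) and the licensing factor gene Cdt1 rose 1.82-fold and 1.35-fold, the latter not past the threshold without NHD13 replicate 2. Of 22 G2-M genes 3 rose (13.6%, against 15.0% of all genes tested) and 0 fell in edgeR. At an unadjusted p under 0.05, 8 were higher and 0 lower (36.4%, against 43.1% of all genes tested). The median log2 change of the G2-M genes was 0.15. Ccnb1 and Plk1 rose 1.30-fold and 1.28-fold. Both calls were lost without NHD13 replicate 2, and that of Ccnb1 also without WT replicate 2 or 3. Summed CPM of the S-phase list was 5914, 6301 and 6503 in WT and 6465, 8034 and 7832 in NHD13, so that NHD13 replicate 1 lay within the WT range. Summed CPM of the 39 members was 2972, 2853 and 2960.5 in WT and 3127, 3440.1 and 3480.03 in NHD13, with NHD13 replicate 1 above WT and below the other NHD13 libraries. Erythroid markers (7 measured) summed to 631 to 737 CPM in WT and 883, 1361 and 1279 CPM in NHD13, with replicate 1 again lowest of its group. Markers of mature neutrophils (9 measured) summed to 32887 to 50802 CPM in WT and 22455 to 31157 CPM in NHD13. Stem cell markers (12 genes) summed to 388 to 413 CPM in WT and 293 to 328 CPM in NHD13, and Kit made up most of the sum in both groups. The 12 include Cd48, which marks stem cells by its absence. These markers did not move as 1 set. Of the 9 tested, 5 were called lower and 1 higher (55.6% and 11.1%, against 15.3% and 15.0% of all genes tested). Their log2 changes ran from -2.46 to 2.73. Mast cell and basophil markers (6 genes) summed to 225 to 532 CPM in the first group and 19.8 to 42.1 CPM in the second, and dendritic cell markers (8 genes) to 329.6 to 482 CPM and 72.1 to 123 CPM. T and NK cell markers (8 measured) summed to 7.43 to 17.5 CPM and 4.66 to 7.88 CPM, and stromal and endothelial markers (8 genes) to 14.98 to 18.5 CPM and 10.2 to 16.1 CPM. The part of cycling and of the mixture of cells in the changes of the repair genes was not tested.

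**Figure D5:**
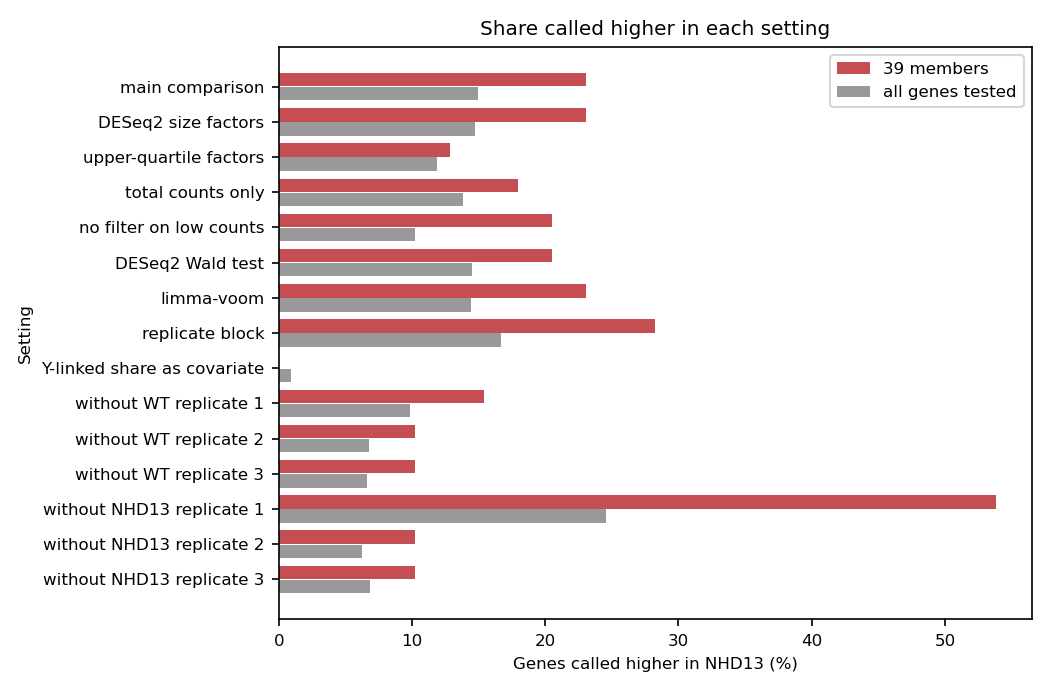
Share of genes called higher in NHD13 (x axis, percent, from 0) under the main comparison and each of 14 alternatives (y axis), for the 39 members in red and for all genes tested in grey. The members' share ranges from 0% with the Y-linked covariate to 53.8% without NHD13 replicate 1. It lies above the share of all genes in each setting but the covariate, though only slightly under upper-quartile factors (12.8% against 11.9%).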

How the data were processed

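RNA sequencing of 3 WT and 3 NHD13 libraries was used. The authors deposited raw counts, whole numbers of reads per gene symbol, in 1 table with a column per library; Bowtie2 2.2.1, HTSeq 0.5.4p3 and build mm10 are named per the submitters' processing notes. The sources used here do not give the annotation, strand setting or read filters. Exons of 19 of the 39 genes overlap another gene in GENCODE vM21 (17 on the opposite strand), which leaves those counts uncertain. Columns were matched to samples by group letters and replicate number; 0 columns were left out and 0 rows named no gene.

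Counts were fitted on the whole table with edgeR 4.0.16 in R 4.3.3: filterByExpr with a minimum count of 10 (12013 genes), TMM scaling, the quasi-likelihood F test with robust estimation and the group as term, two-sided, Benjamini-Hochberg adjustment and a threshold of 0.05. Standard errors were derived from the log2 change and its F value, and 95% intervals use 4 residual degrees of freedom. The script was tested on simulated data. RPKM was computed here from TMM-scaled CPM and the union of exons in the GENCODE basic set, and promoter windows are RefSeq's. DESeq2 1.42.0 and limma 3.58.1 were alternatives. The floor of 3 counts covers counting error only. The members and lists were chosen with earlier results of these data known. Named genes are all members, with values in every library for those called and for the uncalled member of a group with the highest CPM, and up to 3 genes per direction of each other repair list (2 of each cell cycle or p53 list), lowest p first. One gene that this rule names is not reported here. Partner pairs and their leave-one-out values were chosen after seeing the data.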

Additional observations from a re-analysis of the deposited data

How the results depend on the processing

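The 14 alternatives were other scalings, no filter, other tools, each library left out, a replicate block and a Y-linked covariate. Of the 39 genes, 9 were called higher. This was 5 under upper-quartile factors, where the members' share was near that of all genes (12.8% against 11.9%). It was 0 with the Y-linked share as covariate and 4 to 21 with 1 library left out. The number called lower, 0, was 2 under upper-quartile factors (Brip1 and Trp53bp1) and 0 to 2 with 1 library left out. Of all genes tested, 1839 were lower in the main comparison, 2132 under upper-quartile factors and 957 to 2966 with 1 library left out. Of the other repair genes (125 tested in the main comparison) 26 were higher. This was 16 under upper-quartile factors, 0 with the covariate and 5 to 47 with 1 library left out. The shares of all genes called higher in these settings were 11.9%, 0.924% and 6.23% to 24.5%. The 4 other repair genes called lower became 1 with the covariate, where 175 of all genes were lower, and 2 to 8 with 1 library left out. Log2 changes turned in sign only where none was called: Fancc (-0.029 under upper-quartile factors, -0.051 with the covariate, and -0.040 to 0.039 with 1 library left out), Xrcc2 (-0.079) and Lig4 (-0.15), both with the covariate. The labels do not say whether replicate numbers pair the samples, and the correlations did not settle it. Deviations from the group mean correlated at 0.249, 0.0632 and 0.175 between same-numbered WT and NHD13 libraries. Each WT library correlated best with its own number, but NHD13 replicate 2 correlated better with WT replicate 3 (0.149). With the replicate block 11 of the 39 were higher (28.2%, against 16.7% of all genes) and 0 lower (Bard1, Lig1 and Prkdc gained, Brca2 lost). Xrcc5, Wrn, Nbn and Exo1 were called in 13 of 14 alternatives, and their log2 changes with the covariate were 0.83, 0.41, 0.48 and 0.39 (adjusted p = 0.0996, 0.155, 0.101 and 0.136). Precision was limited by the 3 libraries a group and, for the members with the fewest counts (Lig4, Xrcc4 and Rad51c), also by depth.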
